A study of Mus musculus with 11 samples.

Results

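Transcripts of 10 genes of the connective tissue were measured in fetal livers by RNA sequencing. They are the chains of the fibrillar collagens Col1a1, Col1a2, Col3a1 and Col5a1 and the secreted proteins Sparc, Postn, Tnc, Tnn, Thbs1 and Thbs4. They were chosen by name, through the Ensembl identifiers that the GRCm38 annotation gives for these symbols, and are 10 of the 52636 genes in the count tables. All livers were taken at E15.5 (E for the embryonic day) from untreated embryos on a C57BL/6N background. The groups were 3 WT livers, 2 Tnfr1-/- livers (labelled TNFR1KO), 3 Casp8-/- Mlkl-/- livers (Casp8 MLKL dKO) and 3 Casp8-/- Tnfr1-/- livers (Casp8 TNFR1 dKO), all carrying the deletions in every cell of the body. Caspase-8 restrains necroptosis, TNFR1 binds TNF and can start it, and MLKL ruptures the membrane at its last step, so Casp8-/- Mlkl-/- and Casp8-/- Tnfr1-/- livers both lack caspase-8 and differ in the second gene removed. Nothing in the labels says that replicates came from separate embryos or litters, so p values here measure the spread between these livers only.

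Fibrillar collagens are long triple helices that give tissue its tensile strength. Type I collagen is built from the products of Col1a1 and Col1a2, type III from Col3a1 alone, and type V, which controls fibril diameter, contains the Col5a1 chain. Matricellular proteins sit in the matrix without bearing load and modify how cells attach and respond. Sparc binds collagen, Postn (periostin) promotes collagen cross-linking, Tnc and Tnn are tenascins that modulate adhesion, and the thrombospondins Thbs1 and Thbs4 bind matrix, calcium and cell surface receptors. In the fetal liver such transcripts are known from stellate cells, portal fibroblasts, the mesothelium and the capsule, whereas most cells are erythroid precursors and hepatoblasts, and Thbs1 is also a product of megakaryocytes and platelets. Tnn is best known from developing bone and periosteum, and Thbs4 from tendon and muscle.

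The members differ in the sequence just before their start sites. The 150 bases before the RefSeq start of 4 members are shown, since Col1a2 and Col3a1 moved closely together across livers whereas Thbs4 and Tnn were the members with the largest differences between genotypes. Capitals mark a match on either strand to TATAAA (the TATA box), to CCAAT (the CCAAT box) or to GGGCGG (the GC box), in GRCm38.p6 and 5′ to 3′ on the strand of the gene. Col1a2 is read from chr6:4505468-4505617 on the plus strand, Col3a1 from chr1:45311388-45311537 on the plus strand, Thbs4 from chr13:92794819-92794968 on the minus strand and Tnn from chr1:160153576-160153725 on the minus strand.
Col1a2: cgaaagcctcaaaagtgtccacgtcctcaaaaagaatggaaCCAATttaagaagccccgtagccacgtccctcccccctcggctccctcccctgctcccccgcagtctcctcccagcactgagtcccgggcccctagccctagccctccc
Col3a1: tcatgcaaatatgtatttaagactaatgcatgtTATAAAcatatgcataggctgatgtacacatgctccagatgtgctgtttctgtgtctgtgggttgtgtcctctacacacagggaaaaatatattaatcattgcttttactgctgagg
Thbs4: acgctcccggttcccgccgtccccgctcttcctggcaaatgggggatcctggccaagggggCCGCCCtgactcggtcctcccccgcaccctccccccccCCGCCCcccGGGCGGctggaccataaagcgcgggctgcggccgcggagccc
Tnn: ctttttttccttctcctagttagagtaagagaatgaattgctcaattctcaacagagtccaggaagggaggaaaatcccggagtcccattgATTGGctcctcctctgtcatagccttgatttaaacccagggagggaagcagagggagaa

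G and C made up 62.7% of the Col1a2 stretch, 37.3% of Col3a1, 77.3% of Thbs4 and 46.0% of Tnn. Among the 8 members with an entry in the table, which hold 10 start sites, TATAAA was found within 250 bases in 4 windows (Col3a1, Postn and both of Tnc), against 12.4% of all 32851 promoters. CCAAT was found in 2 windows (Col1a2 and Tnn), against 33.8%, and GGGCGG in 5 (Col1a2, Col5a1, Thbs4 and both of Tnc), against 32.7%. The Tnc windows overlap and hold the same TATAAA and GGGCGG sites, so these sites are counted in both. No window held TGANTCA, the AP-1 motif, which is in 6.75% of promoters, or a CArG box, which is in 1.47%. No motif was common to the members, and Col1a1 and Thbs1 are named only.

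Each library held between 23129212 and 35819339 counts on genes, with a median of 25733946, and levels are given as CPM, the counts scaled to a common TMM-normalized library size. Casp8 stood at 27.7 to 33.7 CPM in WT, 7.82 to 10.2 CPM in Casp8-/- Mlkl-/- and 11.5 to 21.9 CPM in Casp8-/- Tnfr1-/- livers, and Mlkl at 4.23 to 4.46 CPM in WT and 0.730 to 1.22 CPM in Casp8-/- Mlkl-/- livers. Tnfrsf1a, which encodes TNFR1, stood at 47.1 to 53.4 CPM in WT and 49.8 to 50.5 CPM in Tnfr1-/- livers, and at 76.0 to 424.8 CPM in Casp8-/- Tnfr1-/- livers, above every WT liver although that genotype is labelled as lacking it, so its count checks neither genotype. Replicate 3 of Casp8-/- Tnfr1-/- stood apart: its correlation with other livers was 0.840 to 0.891, against at least 0.949 among the other 10 livers. The summed CPM of 16 striated muscle genes was 2133 in that liver and 35.3 to 75.8 in the others, with all 16 genes highest there. Replicate 1 of Casp8-/- Tnfr1-/- carried transcripts of cartilage and bone, with 39.4 CPM of the cartilage collagen Col2a1 against 0 to 0.494 CPM in the 8 livers of the other genotypes, and 10.3 CPM of the bone protein gene Ibsp against 0 to 0.0688 CPM in all other livers. Replicate 1 of Casp8-/- Mlkl-/- had the highest summed hepatocyte markers, 203200 CPM, and macrophage markers, 906 CPM. Each result that rests on replicate 3 is therefore given with and without it, and for the members those that rest on either of the others without them as well. Calls in the other gene lists are given with and without replicate 3 only.

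In the 8 livers of the WT, Tnfr1-/- and Casp8-/- Mlkl-/- genotypes the members covered a wide range of levels per length of transcript, given here as CPM per kilobase of the deposited gene width. Sparc was highest at a mean of 81.7 CPM per kilobase (range 64.9 to 126.3), followed by Col3a1 at 65.1 (50.7 to 76.5) and Col1a1 at 47.2 (35.3 to 58.5). The ranges of these neighbours overlapped between livers, but within each of the 8 livers Sparc was above Col3a1 and Col3a1 above Col1a1. Col1a1, Col1a2 at 46.1 (31.7 to 58.4) and Thbs1 at 45.4 CPM per kilobase (25.2 to 58.0) could not be ordered, as Col1a1 was above Col1a2 in 6 of 8 livers and Col1a2 above Thbs1 in 3 of 8. Postn at 18.6 and Col5a1 at 15.9 CPM per kilobase had overlapping ranges, with Postn higher in each of the 8 livers, and Tnc lay below them at 2.89 to 4.14. Thbs4 followed at a mean of 0.150 CPM per kilobase, from 3 to 24 counts a liver, and Tnn came last at 0.00724 CPM per kilobase, from 0 to 3 counts, which is at or under the limit of 3 counts.

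All 10 members were highest in replicate 3 of Casp8-/- Tnfr1-/-, more than 2-fold above every other liver. Among all tested genes 32.3% were highest in that liver and 11.7% were more than 2-fold above all others. The members summed to 8715 CPM there and to 1332 to 1895 CPM in the other 10 livers. Thbs4 exceeded the highest other liver 12.95-fold, Col1a1 5.10-fold, Thbs1 4.71-fold, Col1a2 4.46-fold, Col3a1 4.07-fold, Postn 3.88-fold, Tnc 2.83-fold, Sparc 2.59-fold, Col5a1 2.06-fold and Tnn 2.05-fold. Their order per length changed in this liver as well: Col1a1 came first at 331.7 CPM per kilobase, and Thbs4, at 14.6, passed Tnc, at 11.7. The same liver held 162.4 CPM of the 10 fibroblast markers, against 22.4 to 45.1 CPM in the others, and 552.8 CPM of the 6 smooth muscle markers, against 19.3 to 62.8 CPM, while the stellate cell markers summed to 510.6 CPM against 383.3 to 483.5 CPM. The part of these cells in the members' levels was not tested. In RNA of whole tissue, more cells of a type and more RNA per cell cannot be told apart.

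**Figure D1:**
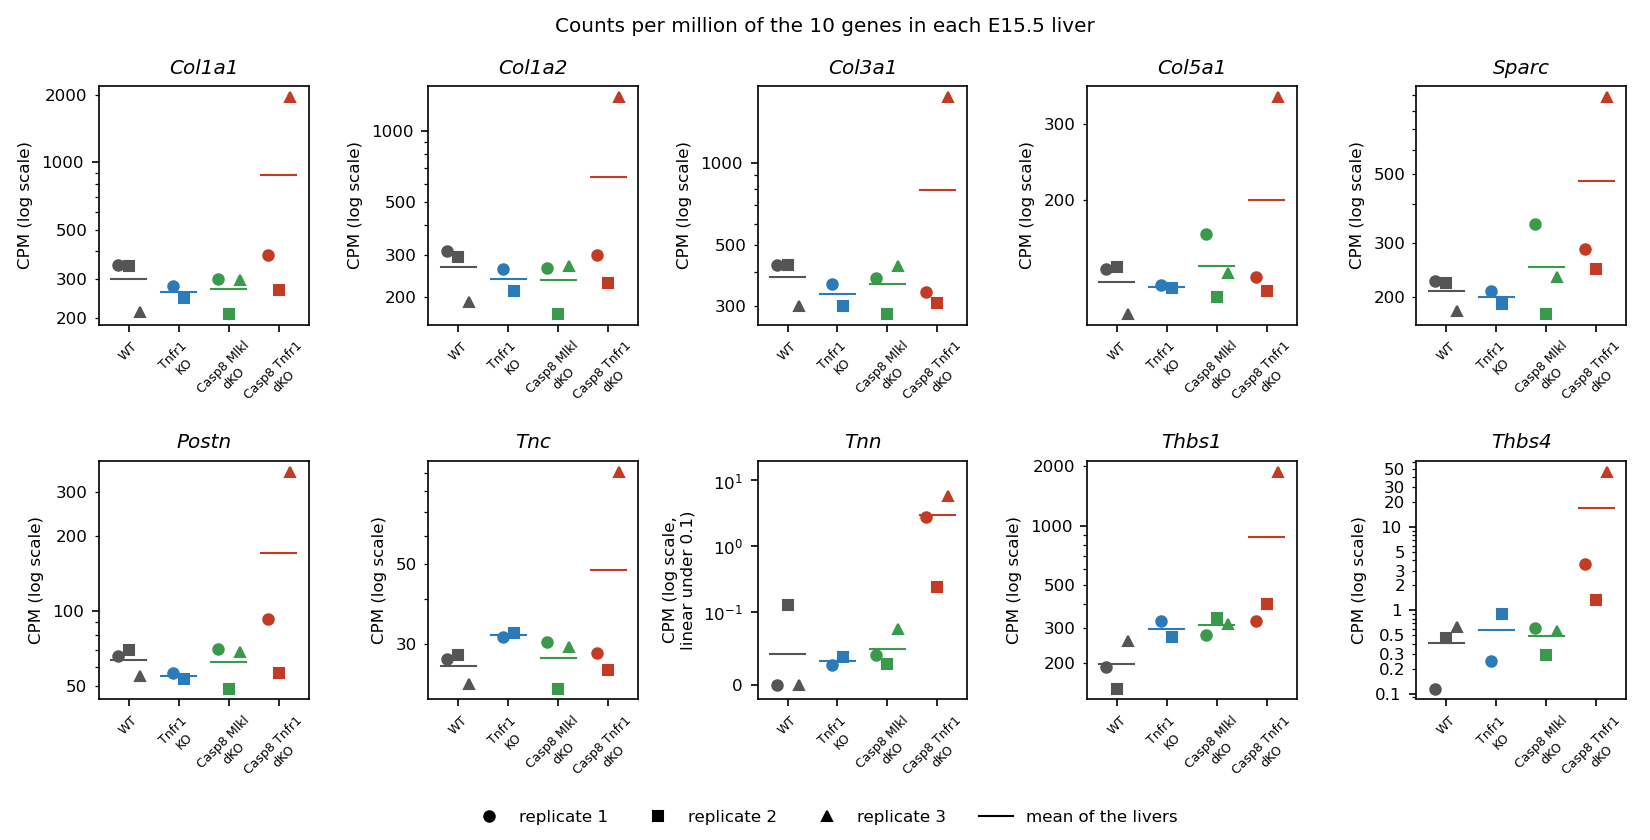
Levels of the 10 genes in each liver in CPM on log axes (linear under 0.1 CPM for Tnn), by genotype, with a symbol per replicate and a line at the mean of each group. Replicate 3 of Casp8-/- Tnfr1-/- is the highest point in every panel, and Thbs4 and Tnn are the 2 genes in which all 3 Casp8-/- Tnfr1-/- livers lie above the other 8.

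The comparison of Casp8-/- Tnfr1-/- with WT livers asks which transcripts differ when caspase-8 and TNFR1 are both absent. Tnn, with 0 to 3 counts in the 8 livers of the other genotypes, passed the filter on low counts only through the Casp8-/- Tnfr1-/- livers, so it is left out of the counts and medians here and described by its values. With all 11 livers, 1 of the other 9 members, Thbs4, rose at an adjusted p under 0.05 by edgeR's quasi-likelihood test, and none fell. Among all 17243 genes tested 5.80% were called in either direction and 5.10% as higher. The log2 fold change was above 0 for all 9, with a median of 1.27 against -0.0015 over all tested genes, and 5 had an unadjusted p under 0.05, against 24.6% of all genes. Without replicate 3 the median of the 9 was 0.12, and Thbs1 and Thbs4 were called, against 9.83% of 17027 genes in either direction and 7.28% as higher. They were also the 2 members with an unadjusted p under 0.05, against 24.0% of all genes. Tnn was left out of that fit for its low counts.

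**Figure D2:**
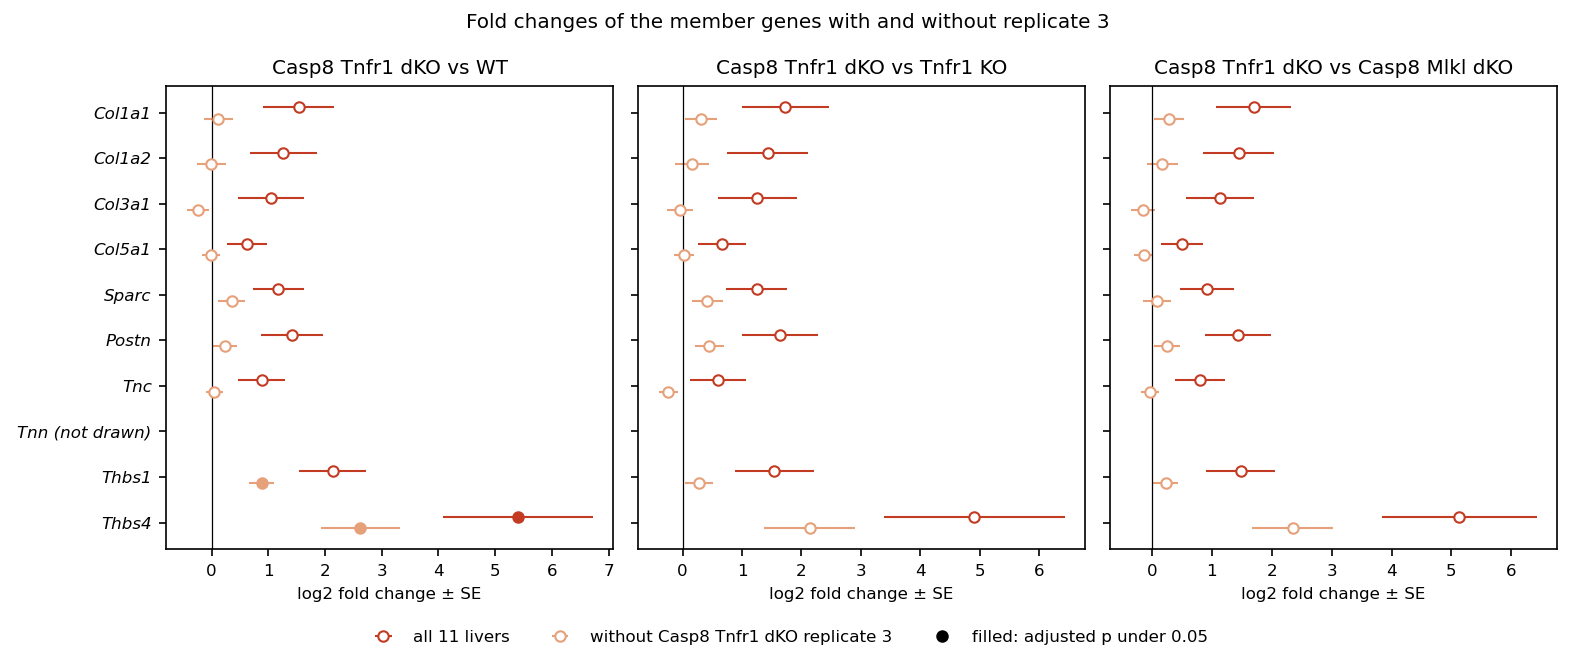
Log2 fold changes with standard errors for Casp8-/- Tnfr1-/- livers against each other genotype, with all 11 livers (dark) and without replicate 3 (light). Points are filled where the adjusted p is under 0.05, which holds against WT for Thbs4 in both fits and for Thbs1 without replicate 3. Tnn is not drawn, since its fold is set by counts near 0.

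The fibrillar collagen chains did not pass the test in any comparison, with all livers or without replicate 3. Col1a1 (chr11:94936224-94953042, plus strand) stood at 347, 343 and 213 CPM in the 3 WT livers, 278 and 248 CPM in Tnfr1-/-, 300.3, 209 and 298 CPM in Casp8-/- Mlkl-/-, and 386, 267 and 1967 CPM in Casp8-/- Tnfr1-/- livers. Replicate 1 of Casp8-/- Tnfr1-/- lay just above the 8 livers of the other genotypes and replicate 2 within them. The log2 fold change over WT was 1.54 (SE 0.63, adjusted p = 0.170) with replicate 3 and 0.12 (95% interval -0.44 to 0.68, adjusted p = 0.822) without it. With replicate 1 also left out, so that replicate 2 stands alone and is assumed to vary like the other groups, it was -0.16 (SE 0.31).

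Col1a2 (chr6:4504814-4541544, plus strand), whose product pairs with that of Col1a1, stood at 312, 295 and 191 CPM in WT, 261 and 212 CPM in Tnfr1-/-, 264, 169 and 270 CPM in Casp8-/- Mlkl-/-, and 299.7, 229 and 1392 CPM in Casp8-/- Tnfr1-/- livers. Both other Casp8-/- Tnfr1-/- livers were within the range of the 8 livers. Relative to WT, the log2 fold change was 1.27 (SE 0.59, adjusted p = 0.217) with replicate 3 and -0.00020 (interval -0.58 to 0.58) without it.

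Col3a1 (chr1:45311538-45349706, plus strand) stood at 423, 426 and 302 CPM in WT, 362 and 302 CPM in Tnfr1-/-, 380, 282 and 420 CPM in Casp8-/- Mlkl-/-, and 338, 309 and 1734 CPM in Casp8-/- Tnfr1-/- livers. Replicates 1 and 2 sat in the lower part of the range of the other livers. The log2 fold change over WT of 1.05 (SE 0.57, adjusted p = 0.279) changed sign without replicate 3, to -0.24 (interval -0.69 to 0.21, adjusted p = 0.531). Col5a1 (chr2:27886425-28039514, plus strand) had the smallest excess in replicate 3 among the collagens, 346 CPM against 110 to 168 CPM in the 8 livers and 133 and 124 CPM in replicates 1 and 2. Its log2 fold change over WT was 0.63 (SE 0.35, adjusted p = 0.287) with replicate 3 and -0.0081 (interval -0.36 to 0.34) without it. Col5a1 shares exon sequence with 2 antisense genes that held 97 and 74 counts over the series, and the use of strand in counting is not given in the sources used here.

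The 3 major chains kept unequal proportions. Per length, Col3a1 over Col1a1 was 1.30, 1.32 and 1.51 in WT, 1.39 and 1.30 in Tnfr1-/-, 1.35 to 1.504 in Casp8-/- Mlkl-/-, and 0.934, 1.23 and 0.940 in Casp8-/- Tnfr1-/- livers. The 3 Casp8-/- Tnfr1-/- ratios lay below all 8 others, whose mean was 1.39 ± 0.087 (SD, n = 8). Among all tested genes 3.28% had a ratio to Col1a1 that was lower in all 3 livers and 4.16% one that was lower or higher. In replicate 2 the sums of striated muscle genes (51.2 CPM) and of cartilage, bone and tendon genes (25.1 CPM) lay within the range of the 8 livers and that of smooth muscle genes (52.0 CPM) above it, and the part of these tissues in the ratio was not tested. Col1a2 over Col1a1, the 2 chains of type I collagen, was 0.866 ± 0.083 (SD, n = 3) in Casp8-/- Tnfr1-/- and 0.976 ± 0.043 (SD, n = 8) in the other livers, with overlapping ranges. These ratios were chosen after their values were seen and carry no test. Of the 28 pairs among the 8 members at 10 CPM or more, 2 had ratios that did not overlap between Casp8-/- Tnfr1-/- and the other livers, Col3a1 with Col1a1 and Col3a1 with Col1a2. Of all pairs of genes at that level 11.9% did not overlap, so the count among the members is below that share.

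**Figure D3:**
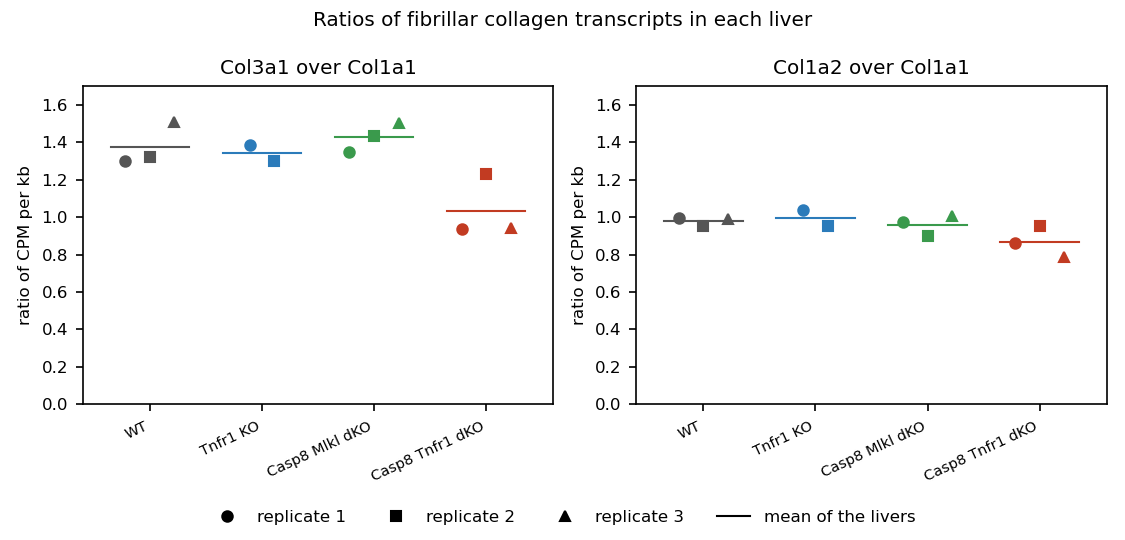
Ratios of CPM per kilobase in each liver, Col3a1 over Col1a1 (left) and Col1a2 over Col1a1 (right), with a symbol per replicate and a line at the group mean. The Col3a1 ratio is 0.934 to 1.23 in Casp8-/- Tnfr1-/- livers and 1.30 to 1.51 in the others, while the Col1a2 ratio overlaps between them.

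Sparc (chr11:55394500-55423183, minus strand), a collagen-binding glycoprotein, stood at 226, 222 and 181 CPM in WT, 209 and 190 CPM in Tnfr1-/-, 344, 177 and 232 CPM in Casp8-/- Mlkl-/-, and 285, 247 and 889 CPM in Casp8-/- Tnfr1-/- livers. Replicate 1 of Casp8-/- Mlkl-/-, the liver rich in hepatocyte and macrophage transcripts, had the highest level outside replicate 3, and all 3 Casp8-/- Tnfr1-/- livers were above all WT and Tnfr1-/- livers. Among all genes 15.7% had this order, and 19.5% were above all WT livers. The log2 fold change over WT was 1.18 (SE 0.45, adjusted p = 0.147) with replicate 3 and 0.35 (interval -0.18 to 0.89, adjusted p = 0.416) without it.

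Among the matricellular members of the periostin and tenascin type, Postn and Tnc did not pass the test with all livers or without replicate 3, and Postn was called over WT in the fit without replicate 2 of Casp8-/- Tnfr1-/-, where 8.49% of all genes were. Postn (chr3:54361109-54391037, plus strand) stood at 66.2, 69.7 and 55.2 CPM in WT, 56.4 and 53.3 CPM in Tnfr1-/-, 70.6, 49.0 and 68.5 CPM in Casp8-/- Mlkl-/-, and 93.0, 56.7 and 361 CPM in Casp8-/- Tnfr1-/- livers. Replicate 1, a liver with cartilage and bone transcripts, was above the 8 other livers and replicate 2 was not. Relative to WT, the log2 fold change was 1.42 (SE 0.55, adjusted p = 0.153) with replicate 3, 0.24 (interval -0.25 to 0.73) without it, and, under the same assumption for replicate 2, -0.16 (SE 0.22) without replicates 1 and 3. Tnc (chr4:63959785-64047015, minus strand) stood at 28.2, 25.4 and 90.8 CPM in Casp8-/- Tnfr1-/- livers and at 22.5 to 32.1 CPM in the other 8, highest among them in the Tnfr1-/- livers, at 31.4 and 32.1 CPM. Its log2 fold change over WT was 0.89 (SE 0.42, adjusted p = 0.223) with replicate 3 and 0.050 (interval -0.28 to 0.38) without it.

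Tnn (chr1:160085029-160153580, minus strand), the tenascin of bone, was nearly absent outside the Casp8-/- Tnfr1-/- livers. It had 0, 3 and 0 counts in WT, 1 and 1 in Tnfr1-/-, 1, 1 and 2 in Casp8-/- Mlkl-/-, and 92, 7 and 101 in Casp8-/- Tnfr1-/- livers, or 2.81, 0.241 and 5.76 CPM in the last. All 3 Casp8-/- Tnfr1-/- livers were above the other 8. Among all genes 7.43% were. The 200 counts in Casp8-/- Tnfr1-/- livers against 9 in the other 8 gave a ratio of 62.5 (95% interval 32.3 to 138.8, which like the other intervals of count ratios covers counting error only). By liver, the ratio to the other 8 was 69.7 (35.1 to 157.2) in replicate 1, 5.98 (1.89 to 18.1) in replicate 2 and 142.9 (72.3 to 321.4) in replicate 3. Against WT it had an edgeR adjusted p = 0.0246 with all livers and of 0.00478 to 0.121 in the 9 other fits it entered with a liver left out. As Tnn passed the filter through the group tested, and failed it without replicate 1 or replicate 3, this p is not counted as a call. The counts of replicates 1 and 3, the livers with bone and muscle transcripts, made up most of its signal, and the part of those tissues was not tested.

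Thbs4 (chr13:92751590-92794818, minus strand), a thrombospondin of tendon and muscle, had the same order. It stood at 0.115, 0.461 and 0.631 CPM in WT, 0.246 and 0.912 CPM in Tnfr1-/-, 0.608, 0.291 and 0.573 CPM in Casp8-/- Mlkl-/-, and 3.60, 1.34 and 46.6 CPM in Casp8-/- Tnfr1-/- livers. Again all 3 Casp8-/- Tnfr1-/- livers were above the other 8, by a ratio of counts of 7.81 (5.94 to 10.3) in replicate 1, 2.91 (1.96 to 4.25) in replicate 2 and 101.1 (82.3 to 125.3) in replicate 3. The log2 fold change over WT was 5.398 (SE 1.32, adjusted p = 0.0429) with all livers and 2.62 (SE 0.70, interval 1.05 to 4.19, adjusted p = 0.0453) without replicate 3. Without replicates 1 and 3, again with replicate 2 assumed to vary like the other groups, it was 1.74 (SE 0.84, adjusted p = 0.389). The call with all livers was kept in 4 of 11 fits that left out a liver (adjusted p 0.0170 to 0.162), namely those without a Casp8-/- Tnfr1-/- liver or without replicate 1 of Casp8-/- Mlkl-/-. The call without replicate 3 was kept in 2 of 10 fits that left out a further liver, replicate 1 or 2 of Casp8-/- Mlkl-/-. The tendon gene Tnmd, named after its values were seen, stood at 0.976 CPM in replicate 1, 9.80 CPM in replicate 3 and at most 0.114 CPM elsewhere, replicate 2 included. Of the 12 genes of the cartilage, bone and tendon list 7 were highest in replicate 3. The part of tendon and muscle in the Thbs4 level was not tested.

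Thbs1 (chr2:118111876-118127133, plus strand), a thrombospondin of platelets and stroma that binds CD47 and activates latent TGF-beta, had a pattern of its own. It stood at 190, 148 and 257 CPM in WT, 328 and 270 CPM in Tnfr1-/-, 276, 339 and 316 CPM in Casp8-/- Mlkl-/-, and 326, 400 and 1884 CPM in Casp8-/- Tnfr1-/- livers. The 3 WT livers were below all 8 livers of the mutant genotypes. Among all genes 2.93% had this order and 7.84% this or the opposite one. Compared with WT, Casp8-/- Tnfr1-/- livers had a log2 fold change of 2.14 (SE 0.59, interval 0.83 to 3.44, adjusted p = 0.0637) with replicate 3 and 0.88 (SE 0.21, interval 0.40 to 1.36, adjusted p = 0.0313) without it. Without replicates 1 and 3 and with the same assumption it was 1.02 (SE 0.27, adjusted p = 0.0884), and no member was called, where 3.60% of all genes were. The call without replicate 3 was kept in 5 of 5 other settings of the fit and in 4 of 10 fits that left out a further liver (adjusted p 0.000844 to 0.226). It was lost without WT replicate 1 or 2, without either Tnfr1-/- liver, and without replicate 1 or 2 of Casp8-/- Tnfr1-/-.

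The genotypes without the double loss of caspase-8 and TNFR1 were also compared with WT. No member was called in Casp8-/- Mlkl-/- or Tnfr1-/- livers by edgeR, with or without replicate 3. Among all genes 0.00580% and 0% were called with replicate 3, and 0.159% and 0% without it. No member had an unadjusted p under 0.05 with all livers, where 5.63% and 1.08% of all genes had one. Thbs1 had a log2 fold change of 0.65 in Casp8-/- Mlkl-/- livers (interval 0.22 to 1.09 and adjusted p = 0.192 without replicate 3) and of 0.60 in Tnfr1-/- livers (interval 0.12 to 1.08, adjusted p = 0.933). limma-voom with quality weights for each library called Thbs1 in both, where 6.04% and 1.57% of all genes were called, and DESeq2's Wald test called it in Casp8-/- Mlkl-/- livers without replicate 3, where 2.93% were. The 8 megakaryocyte markers summed to 372, 263 and 448 CPM in WT, 487 and 427 CPM in Tnfr1-/-, 351, 457 and 466 CPM in Casp8-/- Mlkl-/-, and 348, 489 and 391 CPM in Casp8-/- Tnfr1-/- livers. WT replicate 2 was lowest both in this sum and in Thbs1, and the part of megakaryocytes in the Thbs1 level was not tested.

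Against Tnfr1-/- and Casp8-/- Mlkl-/- livers, no member passed the test by edgeR. With all livers 5 of the 9 members other than Tnn had an unadjusted p under 0.05 in each comparison, against 16.3% and 15.3% of all genes, while 2.17% and 1.65% of all genes were called after adjustment. Without replicate 3, 1 member in each, Thbs4, had an unadjusted p under 0.05, against 17.7% and 13.8% of all genes, and 5.19% and 3.17% of all genes were called. DESeq2's Wald test called Thbs4 in both with all livers, where it called 7.36% and 5.46% of all genes. It also called Tnn in both, which is not counted for the reason given above. These comparisons share the Casp8-/- Tnfr1-/- livers with the one against WT and are no independent evidence.

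Thbs4 had log2 fold changes of 4.91 (SE 1.52, adjusted p = 0.149) over Tnfr1-/- and 5.13 (SE 1.29, adjusted p = 0.0925) over Casp8-/- Mlkl-/- livers, and of 2.14 (SE 0.76, adjusted p = 0.168) and 2.35 (SE 0.68, adjusted p = 0.123) without replicate 3. For Thbs1 the values were 1.54 and 1.49 with replicate 3, and 0.28 (interval -0.25 to 0.81) and 0.23 (interval -0.25 to 0.71) without it. Col1a1 had 1.73 and 1.698 with replicate 3, and 0.31 (interval -0.30 to 0.93) and 0.28 (interval -0.28 to 0.84) without it. The medians of the 9 members were 1.44 over both Tnfr1-/- and Casp8-/- Mlkl-/- livers, and 0.28 and 0.18 without replicate 3.

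As a check that assumes no model, the mean log2 CPM of each member in the 3 Casp8-/- Tnfr1-/- livers was compared with that in the 8 others by exact permutation, two-sided. Tnn entered the tested genes through the Casp8-/- Tnfr1-/- livers, so its permutation p is not given. Thbs4 reached a permutation p = 0.00606, the smallest that this design allows, followed by Thbs1 (p = 0.0182), Postn (p = 0.0303) and Sparc (p = 0.0424). These permutation p values are not adjusted. The share of all genes under 0.05 in this test was not counted, so the number of members under it is no result about them. The values adjusted over all genes are the edgeR ones given for each member. Without replicate 3, Thbs4 reached a permutation p = 0.0222, the smallest that 45 splits allow. The 8 members other than Thbs4 and Tnn had p between 0.156 and 0.778. Replicates 1 and 2 were above all 8 livers in Thbs4, as in 10.7% of the 17027 genes tested without replicate 3. Tnn had the same order but was not among those genes.

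Without both replicate 3 of Casp8-/- Tnfr1-/- and replicate 1 of Casp8-/- Mlkl-/-, the spread between livers was smaller and more genes were called. Thbs4 (log2 fold change 2.64, SE 0.59, adjusted p = 0.00332), Thbs1 (0.89, SE 0.16, adjusted p = 0.000844) and Sparc (0.36, SE 0.12, adjusted p = 0.0274) rose over WT. Of all genes 31.3% were called there, so 3 of 9 members is near the share of all genes. Sparc and Thbs4 were also called over Tnfr1-/- livers, where 23.2% of all genes were, and over Casp8-/- Mlkl-/- livers, where 18.1% were. Thbs1 was called in Casp8-/- Mlkl-/- over WT livers (0.73, SE 0.16, adjusted p = 0.0195), where 6.40% of all genes were, and no member was called in Tnfr1-/- livers, where 0.678% were. The type I, III and V chains, Postn and Tnc were not called over WT in this fit, with log2 fold changes from -0.23 for Col3a1 to 0.25 for Postn.

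The gene most like each member was sought among all tested genes by the root mean square difference of log2 CPM over the 11 livers, each gene centred on its mean. Col6a2, a chain of the microfibrillar type VI collagen, was nearest to Col1a1 and Col1a2 (0.163 each) and to Col3a1 (0.199). Within the members Col1a1 and Col1a2 were 0.111 apart, closer than any other gene was to either. Postn was nearest to the growth factor gene Tgfb3 (0.136), Col5a1 to the collagen prolyl hydroxylase gene P3h2 (0.0841), Sparc to the growth arrest gene Gas1 (0.113) and Tnc to Gng5 (0.131). Tnn was nearest to C1qtnf3 (0.503), Thbs4 to the transcription factor gene Bhlhe41 (0.604) and Thbs1 to the phosphodiesterase gene Pde10a (0.254). The nearest member to Thbs1 was Postn at 0.504, with 621 other genes nearer, and Tnn and Thbs4 were 0.844 apart. With 11 livers of which 1 is far from the rest, these distances are set in large part by that liver, and Col6a2, for example, stood at 366.5 CPM there and at 36.6 to 64.6 CPM elsewhere.

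Other genes of collagen biology were counted from lists chosen by name. As the share to set beside each list, 5.10% of all genes were called higher over WT with all livers and 7.28% without replicate 3. Of 15 other collagens, none was called against WT with all livers and 2, Col2a1 and Col4a2, were higher without replicate 3, with a median log2 fold change of 1.57 and 0.48. The most abundant were Col18a1, Col4a1 and Col4a2, of basement membranes, and Col14a1, a collagen associated with fibrils. Col4a2 stood at 77.0 to 89.6 CPM in WT, 84.0 to 87.3 CPM in Tnfr1-/-, 99.6 to 136 CPM in Casp8-/- Mlkl-/- and 132, 127 and 462 CPM in Casp8-/- Tnfr1-/- livers. Without replicate 3, Col4a2 had a log2 fold change over WT of 0.62 (SE 0.13, adjusted p = 0.0206). The call of Col2a1 rested on the cartilage collagen in replicate 1, as replicate 2 held 0.138 CPM.

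Of 16 genes that modify, fold or cross-link collagen, 1 was higher with all livers, the lysyl hydroxylase gene Plod3 (0.92, SE 0.22, adjusted p = 0.0413), and 4 without replicate 3, with medians of 1.01 and 0.29. Among all genes 5.10% and 7.28% were called higher. The 4 were Plod3 (0.60, adjusted p = 0.0144), the lysyl oxidase gene Loxl2 (0.70, adjusted p = 0.00803), the prolyl hydroxylase gene P4ha1 (0.47, adjusted p = 0.0455) and the collagen chaperone gene Serpinh1 (0.50, adjusted p = 0.0266). The same 4 were called over Tnfr1-/- livers without replicate 3, where 5.19% of all genes were. Of the 4, Loxl2 alone was called over Casp8-/- Mlkl-/- livers (0.56, adjusted p = 0.0459), where 3.17% of all genes were. Loxl2 stood at 28.0, 26.6 and 25.7 CPM in WT, 26.8 CPM at most in Tnfr1-/-, 28.3, 27.0 and 33.1 CPM in Casp8-/- Mlkl-/-, and 46.6, 39.9 and 120.8 CPM in Casp8-/- Tnfr1-/- livers. The last 3 were above the other 8, as in 7.43% of all genes. P4hb, Colgalt1 and Plod1, which with Serpinh1 are the most abundant of the list, were not called. Loxl2, P4ha1 and Plod3 are named after their values were seen.

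Of 20 other matricellular and matrix genes, 4 were higher over WT with all livers (Ccn1, Spp1, Tgfbi and Vcan) and 5 without replicate 3, Ccn2 being added, with medians of 1.39 and 0.32. The shares of all genes called higher were 5.10% and 7.28%. Tgfbi, which encodes a collagen-binding protein of the periostin family, stood at 31.5, 33.3 and 23.8 CPM in WT, 31.5 and 34.4 CPM in Tnfr1-/-, 62.6, 38.9 and 38.3 CPM in Casp8-/- Mlkl-/-, and 116.1, 131.4 and 164.9 CPM in Casp8-/- Tnfr1-/- livers. Relative to WT, it differed by a log2 fold change of 2.22 (SE 0.24, adjusted p = 0.000796) and without replicate 3 2.07 (SE 0.22, adjusted p = 0.000639). Unlike its relative Postn, Tgfbi was high in replicate 2 as well. Vcan, the large proteoglycan versican, stood at 16.1, 19.0 and 9.35 CPM in WT, 15.8 CPM at most in Tnfr1-/-, 12.5, 11.7 and 19.6 CPM in Casp8-/- Mlkl-/-, and 59.6, 51.0 and 121.3 CPM in Casp8-/- Tnfr1-/- livers. Over WT, Vcan had a log2 fold change of 2.38 (SE 0.38, adjusted p = 0.00701) and without replicate 3 1.91 (SE 0.29, adjusted p = 0.00402). Tgfbi and Vcan were called in all 3 comparisons, with and without replicate 3, and were named after their values were seen. Fn1, Bgn, Dcn and Lum, the most abundant of the list, were not called.

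Of 12 matrix receptor genes 1, the collagen receptor integrin gene Itga2, was called over WT in both fits (1.02 and 1.01, adjusted p = 0.0120 and 0.00717), with medians of the list of 0.53 and 0.29. Among all genes 5.10% and 7.28% were called higher. Itga2 stood at 4.92 to 6.94 CPM in WT and 8.36 to 9.16 CPM in Tnfr1-/- livers. It stood at 10.7 to 11.9 CPM in Casp8-/- Mlkl-/- and 10.1 to 12.8 CPM in Casp8-/- Tnfr1-/- livers. Its higher level was thus not particular to Casp8-/- Tnfr1-/- livers. Cd47, Itgb1, Itgb3 and Itga5, the most abundant, were not called. Of 12 TGF-beta pathway genes, led in abundance by Tgfb1, Tgfbr3, Tgfbr2 and Tgfbr1, none was called with all livers and Tgfbr1 was called without replicate 3 (0.45, SE 0.12, adjusted p = 0.0400), with medians of 0.44 and 0.25. Tgfbr1 stood at 48.0 and 59.5 CPM in replicates 1 and 2, but at 28.2 CPM in replicate 3, below the WT range of 36.9 to 42.0 CPM.

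Lists of cell type markers gave the setting for the members against WT. Of all genes 5.80% were called with all livers (5.10% as higher) and 9.83% without replicate 3 (7.28% as higher). Of 9 tested fibroblast markers 1 was higher with all livers (Fap) and none without replicate 3, with medians of 2.38 and 0.58. Of 10 stellate cell markers Ngfr was higher in both fits (1.61, adjusted p = 0.00242, and 1.41, adjusted p = 0.000724), and Des and Pdgfrb were higher without replicate 3, with medians of 0.62 and 0.29. The mesothelial list had no call in either fit, with medians of 0.59 and 0.046. The median of the striated muscle list went from 5.52 to 0.98, with no call and then calls of Tnni1 and Tnnt1. That of the smooth muscle list went from 2.75 to 0.77, with no call and then Tagln, and that of the cartilage, bone and tendon list from 1.74 (8 genes tested) to 0.36 (5 tested), with no call.

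Of the remaining lists, Fcgr2b and Pecam1 of the endothelial list were called higher in both fits. Stab2 of that list was not called, at 85.7, 71.4 and 249.1 CPM in Casp8-/- Tnfr1-/- against 96.7 to 111.7 CPM in WT livers. Krt15 of the skin list was also called in both fits, at 0.702, 0.482 and 2.68 CPM in Casp8-/- Tnfr1-/- livers. It stood at 0 to 0.158 CPM in WT and 0.191 and 0.684 CPM in Tnfr1-/- livers. Like the fold of Tnn, that of Krt15 is set by counts near 0, so its call adds no evidence. In the macrophage list Cd68 was called higher in both fits, whereas Clec4f and Marco were called lower with all livers and not called without replicate 3. Replicates 1 and 2 were nonetheless below WT in both genes. Clec4f stood at 1.16 and 0.551 CPM there against 10.45 to 13.71 CPM in WT, and Marco at 28.8 and 21.9 CPM against 49.1 to 71.9 CPM. In Casp8-/- Mlkl-/- livers Clec4f was below WT as well, at 5.47, 0.203 and 0.726 CPM. Marco was above WT there, at 240, 90.7 and 114.2 CPM. The megakaryocyte, hepatocyte and erythroid lists, the last of which holds no globin, had no call. Of 7 tested globin genes none was called with all livers, and Hba-a1 (-0.70, adjusted p = 0.0445), Hba-a2 (-0.85, adjusted p = 0.0164) and Hbb-bt (-0.70, adjusted p = 0.0263) were lower without replicate 3, with medians of 0.63 and -0.85. Near-identical copies make the split of reads between Hba-a1 and Hba-a2, and between the adult beta globins, uncertain. The cartilage, bone and tendon genes summed to 45.3 CPM in replicate 1, 25.1 CPM in replicate 2 and 79.7 CPM in replicate 3, against 17.8 to 36.7 CPM in the other 8 livers.

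**Figure D4:**
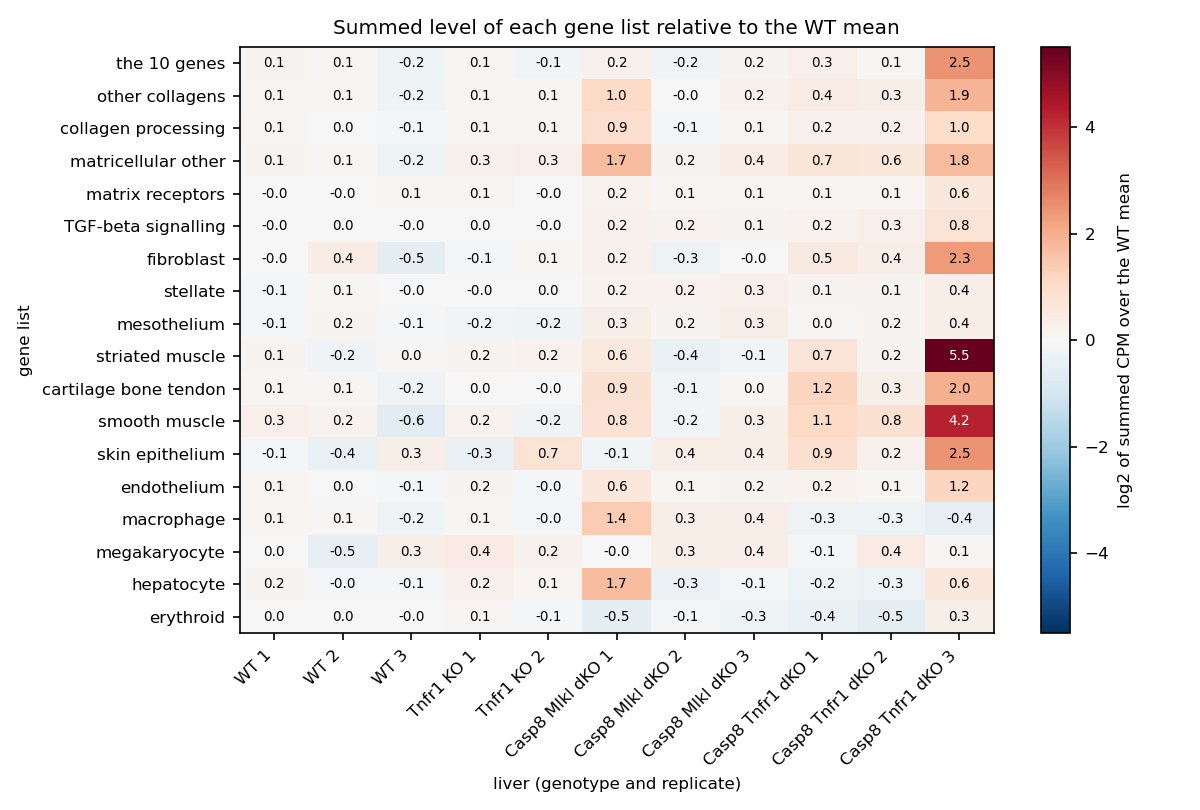
Log2 of the summed CPM of each gene list in each liver over the mean of the WT livers, with the value printed in each cell. The 10 genes stand at 2.5 in replicate 3 of Casp8-/- Tnfr1-/- and between -0.2 and 0.3 in the other livers, and the striated muscle list stands at 5.5 in that liver.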

How the data were processed

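RNA of 11 livers was sequenced as single-end reads. The authors aligned them to GRCm38 with GSNAP and used uniquely mapped reads. The counts that the authors deposited are whole numbers of exonic reads per gene and were not normalized, and a gene width in bases stands beside them. The RPKM values that the authors deposited divide these counts by the width and by a read total of 27742265 to 45570169 per liver, and were not used further. The counting tool, annotation release and strand setting are not given in the sources used here, and the labels and the methods name different kits and sequencers.

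Gene names and positions came from GENCODE release M21 (52403 of 52636 genes matched), and promoter sequences from RefSeq (GRCm38.p6, 8 of 10 members matched). Genes with a count numbered 29478. Genes were kept by filterByExpr (minimum count 10), normalized by TMM and fitted over the 4 genotypes by edgeR 4.0.16 (glmQLFit and glmQLFTest, R 4.3.3), with Benjamini-Hochberg adjustment over all genes tested and a threshold of 0.05. A prior count of 2 went into log2 CPM. Intervals of folds are at 95%, those of count ratios are exact, and these, like floors of 3 counts, leave out any error but that of counting (PCR copies carry no molecular identifier). No 2 livers were the same library (chi-square of at least 6.45 per degree of freedom).

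The members and all lists were chosen with earlier results of these data known. Named were all members, the 4 genes of each list with the highest level, the gene most like each member and the targeted genes. Genes called in a list and Col2a1, Ibsp and Tnmd were named after their values were seen. Fmod is in the matricellular and the cartilage list. Alternatives were DESeq2 1.42.0 size factors and Wald test, limma-voom (limma 3.58.1) with and without quality weights, globin genes left out of library sizes, no filter or a mean of 10 counts, only the 2 genotypes compared, the replicate number as a block, and each liver left out. Quality weights and the alternatives to the fit without replicate 3 were added after the data were seen. On simulated counts of 16976 genes for Casp8-/- Tnfr1-/- against WT, the test recovered 8 of 100 genes changed 2-fold and 53 of 100 changed 4-fold, with 2 false calls.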

Additional observations from a re-analysis of the deposited data

How the results depend on the processing

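Counts of members called here include Tnn wherever it was tested. It passed the filter through the group tested, so a call of Tnn adds no evidence. Without Tnn, 1 member, Thbs4, was called in Casp8-/- Tnfr1-/- livers over WT with all livers. For Casp8-/- Tnfr1-/- against WT the number (2) was 0 with limma-voom, with only the 2 groups compared and with the replicate block, 3 by DESeq2's Wald test, with quality weights and with no filter (13.7%, 30.6% and 3.80% of all genes called), and 0 to 4 when a liver was left out. Without replicate 3 (2 called) it was 1 with the replicate block and with limma-voom, 3 with no filter, and 0 to 3 when a further liver was left out. Against Tnfr1-/- it was 0 (2.17% of all genes), 2 by the Wald test, 3 with quality weights and 1 with no filter (7.36%, 25.1% and 1.57%). Over livers left out it was 0 to 1, with 1.31% to 5.19% of all genes where 2 Tnfr1-/- livers remained. Without replicate 3 it was 0 (5.19%), 1 with no filter (3.60%) and 0 to 2 when a further liver was left out. Where each group kept 2 livers or more, 3.70% to 23.2% of all genes were called in those fits. Against Casp8-/- Mlkl-/- it was 0 (1.65% of all genes), and 2 by the Wald test and with no filter (5.46% and 1.43%). With quality weights, a mean of 10 counts or globin genes left out it was 1 (15.7%, 1.81% and 1.71%). Over livers left out it was 0 to 2 (0.483% to 3.30%). Without replicate 3 it was 0 (3.17%), 2 with no filter (2.49%) and 1 by the Wald test (5.40%). It was 0 to 2 when a further liver was left out. Where 2 Casp8-/- Tnfr1-/- livers remained, 1.56% to 18.1% of all genes were called in those fits. For Casp8-/- Mlkl-/- against WT it was 1 with quality weights (6.04% of all genes). Without replicate 3 it was 1 by the Wald test (2.93%) and 0 to 1 over livers left out. Where 2 Casp8-/- Tnfr1-/- livers remained, 0.0293% to 6.40% of all genes were called in those fits. For Tnfr1-/- against WT it was 1 with quality weights (1.57%). Members under p = 0.05 by exact permutation (5, with Tnn among them) numbered 2 to 6 over livers left out, and the share of all genes was not counted.

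The sign of a log2 fold change turned for several members. With quality weights, against WT, it was -0.0097 for Col1a2, -0.25 for Col3a1 and -0.025 for Col5a1 in Casp8-/- Tnfr1-/-, and -0.0075 for Col5a1 in Casp8-/- Mlkl-/- livers. Against Tnfr1-/- it was -0.0010 for Col3a1 and -0.22 for Tnc, and against Casp8-/- Mlkl-/- -0.17 for Col3a1 and -0.018 for Col5a1. In Tnfr1-/- livers Tnn had 0.11 with these weights, 0.32 with limma-voom and 0.072 with the replicate block, which also gave 0.067 for Col5a1 and 0.057 for Sparc.

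Over livers left out, the log2 fold change of Casp8-/- Tnfr1-/- over WT was -0.00020 to 1.68 for Col1a2, -0.24 to 1.44 for Col3a1 and -0.0081 to 0.89 for Col5a1, the lowest being the fit without replicate 3. Over Tnfr1-/- it was -0.037 to 1.645 for Col3a1 and -0.24 to 0.91 for Tnc, and over Casp8-/- Mlkl-/- -0.15 to 1.54 for Col3a1, -0.13 to 0.78 for Col5a1 and -0.027 to 1.13 for Tnc. For Casp8-/- Mlkl-/- over WT it was -0.24 to 0.054 for Col3a1, -0.018 to 0.22 for Col5a1, -0.12 to 0.12 for Postn, -0.0090 to 0.19 for Tnc, -0.35 to 3.53 for Tnn, -0.18 to 0.75 for Thbs4 and -0.034 to 0.45 for Sparc. For Tnfr1-/- over WT it was -0.14 to 0.028 for Col5a1, -0.85 to 3.03 for Tnn, -0.69 to 1.175 for Thbs4 and -0.16 to 0.00075 for Sparc. Mean differences in the exact permutation test were -0.15 to 1.10 for Col3a1, -0.045 to 0.70 for Col5a1 and -0.052 to 0.87 for Tnc. The cause of these changes was not tested, beyond which liver was left out.

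The replicate numbers pair no livers by the labels. Of 15 pairs with the same number 5 had deviations correlated above 0.1 (-0.297 to 0.275, against -0.284 to 0.309 in other pairs). Over all genes, calls against WT numbered 1000, 572 with the replicate block, 486 with only 2 groups, 2364 by the Wald test and 5279 with quality weights, and without replicate 3 1674, 944 with the replicate block. Depth limits Tnn, at 0 to 3 counts in the 8 livers of the other genotypes.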

Other observations

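Replicate 1 of Casp8-/- Mlkl-/- was high in matrix genes that hepatocytes and sinusoidal cells are known to make. Fn1 stood at 5225 CPM there and at 1191 to 1783 CPM in the WT and Tnfr1-/- livers. Col18a1 stood at 1103 CPM, against 330.7 to 437.9 CPM in those 5 livers. Sparc (344 CPM) and Col5a1 (168 CPM) were highest there outside replicate 3 of Casp8-/- Tnfr1-/-, whereas Col1a1 (300.3 CPM), Col3a1 (380 CPM) and Thbs1 (276 CPM) lay within the range of the other livers.

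Of the 10 stellate cell genes 8 had a log2 fold change above 0 in Casp8-/- Tnfr1-/- over WT livers, with and without replicate 3. The median over all tested genes was -0.0015 with all livers, and their share above 0 was not counted. The stellate sum was 436.5, 442.2 and 510.6 CPM in Casp8-/- Tnfr1-/- livers. It was 383.3 to 418.9 CPM in WT and 455.3 to 483.5 CPM in Casp8-/- Mlkl-/- livers. Ngfr, the low-affinity neurotrophin receptor, stood at 21.9, 19.4 and 30.7 CPM in Casp8-/- Tnfr1-/- livers and at 6.79 to 11.3 CPM in the other 8. Among all genes 7.43% had all 3 livers above the other 8. Reln, the most abundant gene of the list, stood at 308.9, 313.7 and 149.5 CPM against 276.5 to 370.6 CPM. Replicates 1 and 2 were within the range of the other livers in Reln and replicate 3 was the lowest of the 11 livers. Ngfr was called in all 3 comparisons, with and without replicate 3, and was named after its values were seen.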
